A study of Homo sapiens with 8 samples.

Results

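MYCN and 7 adrenergic transcription factors, PHOX2A, HAND2, GATA2, GATA3, ISL1, TBX2 and MEIS2, were followed in MeRIP-seq of SK-N-BE(2) cells, an established neuroblastoma line known for its amplified MYCN. These 8 genes were taken by name from the 56303 rows of the gene count table, and all 8 passed the filter on low counts. Knockdown used a pLKO.1 lentiviral vector. The 2 arms, sh-NC with a control hairpin and shMETTL14 with a hairpin against METTL14, had 2 cultures each. Each culture gave an input library, the fragmented polyadenylated RNA, and an IP library, the same RNA pulled down with an antibody against m6A, so that there were 8 libraries. The labels number the cultures of each arm 1 and 2 and do not say whether the numbers in the knockdown arm stand for repeat cultures or for separate METTL14 hairpins. The p-values therefore measure the spread between these samples, which may be technical.

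METTL14 is the RNA-binding partner of METTL3 in the complex that writes m6A on messenger RNA, a mark read by proteins that can alter the stability, splicing and translation of a transcript. Adrenergic neuroblastoma cells keep the program of sympathoadrenal progenitors, in which a small set of transcription factors bind the enhancers of their own and of each other's genes. MYCN, a bHLH-ZIP oncoprotein that pairs with MAX at E-boxes, joins these enhancers when the gene is amplified. PHOX2A and ISL1 carry homeodomains, HAND2 is a bHLH factor of the sympathetic lineage, GATA2 and GATA3 are zinc-finger factors needed for noradrenergic differentiation, TBX2 is a T-box repressor, and MEIS2 is a TALE homeodomain factor that works with PBX proteins.

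The knockdown was visible in the counts. METTL14 stood at 49.54 and 48.76 CPM (counts per library, scaled with TMM factors) in the sh-NC inputs and at 13.68 and 14.65 CPM in the shMETTL14 inputs, a log2 change of -1.79 (SE 0.0663, adjusted p = 1.28e-15, edgeR's quasi-likelihood test). Total counts ran from 32027379 to 47205265 per library. The labels name only the cell line, and its adrenergic state was checked on markers. All 15 adrenergic markers, the 8 factors among them, reached 1 CPM in the inputs of both arms, and so did 13 of 15 markers of the mesenchymal state. The adrenergic markers summed to 6852 to 7099 CPM in the sh-NC inputs, of which MYCN made up a mean of 4340 CPM. Without MYCN they summed to 2647 and 2628 CPM. The mesenchymal set summed to 2608 to 2685 CPM, of which VIM made up a mean of 1950 CPM. The mesenchymal factors PRRX1 (0.336 and 0.166 CPM) and RUNX2 (0.504 and 0.943 CPM) fell short of 1 CPM there. RNA of markers of both states was thus present in these cultures. Marker sets of Schwann, epithelial, blood and endothelial cells summed to at most 8.308 CPM each, with LYZ at 0 in every input library.

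The 8 genes lie on 8 different chromosomes, and their merged exons run from 1784 bases (PHOX2A) to 10798 bases (MEIS2). In the coordinates of the count table, which match GRCh38, MYCN lies at chr2:15940564-15947007 (plus strand), HAND2 at chr4:173524969-173530229 (minus strand) and GATA2 at chr3:128479427-128493185 (minus strand). Because these factors are known to bind regulatory DNA of the same gene set, their start sites were searched for motifs of the members' own families. RefSeq windows of GRCh38.p14, from 250 bases before to 50 bases after an annotated start, were held for 7 of the 8 genes and not for TBX2, 14 windows in all, of which 6 belong to GATA3. Both strands were searched for the E-box CACGTG, the GATA motif AGATAA, the TALE motif TGACAG and the homeodomain core TAATTA. The 30-base stretches that follow are shown because they are the places where an E-box, a GATA motif or a homeodomain core was found, with the motif in capitals, read 5′ to 3′ on the strand of the gene.
ISL1, GATA motif at -31 from the start, chr5:51383405-51383434, plus strand: agtttgagtaagAGATAAggaagagaggtg
HAND2, GATA motif read as its reverse complement at -172, chr4:173530384-173530413, minus strand: gccaagttttaaTTATCTtatggttatgag
HAND2, homeodomain core at -175, overlapping the GATA motif, chr4:173530387-173530416, minus strand: cccgccaagtttTAATTAtcttatggttat
GATA3, E-box at -64 from an alternative start, chr10:8051160-8051189, plus strand: gggagggacttgCACGTGggcatgtgtttg
The TALE motif was found in windows of MYCN and GATA3. Across all 35116 windows, CACGTG was present in 7.26%, AGATAA in 10.3%, TGACAG in 15.8% and TAATTA in 4.84%. Counted per gene, with any of its windows, the shares were 8.77%, 12.4%, 18.6% and 5.95% of 27305 genes. These matches describe the letters in these windows and say nothing of occupancy.

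Per length, the 8 factors covered a wide range of input RNA. Levels were set between genes as CPM per kb of exonic length. MYCN stood first, at 1710 and 1620 CPM per kb in the sh-NC cultures, rank 19 of 56303 genes, and its reads alone made up 0.46% and 0.441% of all input counts there. HAND2 followed at 278 and 274 CPM per kb (rank 127), and PHOX2A at 82.3 and 89.1 CPM per kb (rank 456). GATA3 (39.5 and 37.2 CPM per kb), GATA2 (35.3 in both cultures) and TBX2 (27.5 and 27.2) formed the middle. MEIS2, at 9.82 and 9.18, and ISL1, at 6.93 and 7.02 CPM per kb, were lowest. No neighbouring pair in this order overlapped between cultures, although GATA3 exceeded GATA2 by only 1.09-fold in the means. In shMETTL14 the order was the same except that GATA2, at 59.5 and 60.7 CPM per kb, stood above GATA3, at 48.3 and 44.5. MYCN kept rank 19 in shMETTL14, with 1660 and 1640 CPM per kb.

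**Figure D1:**
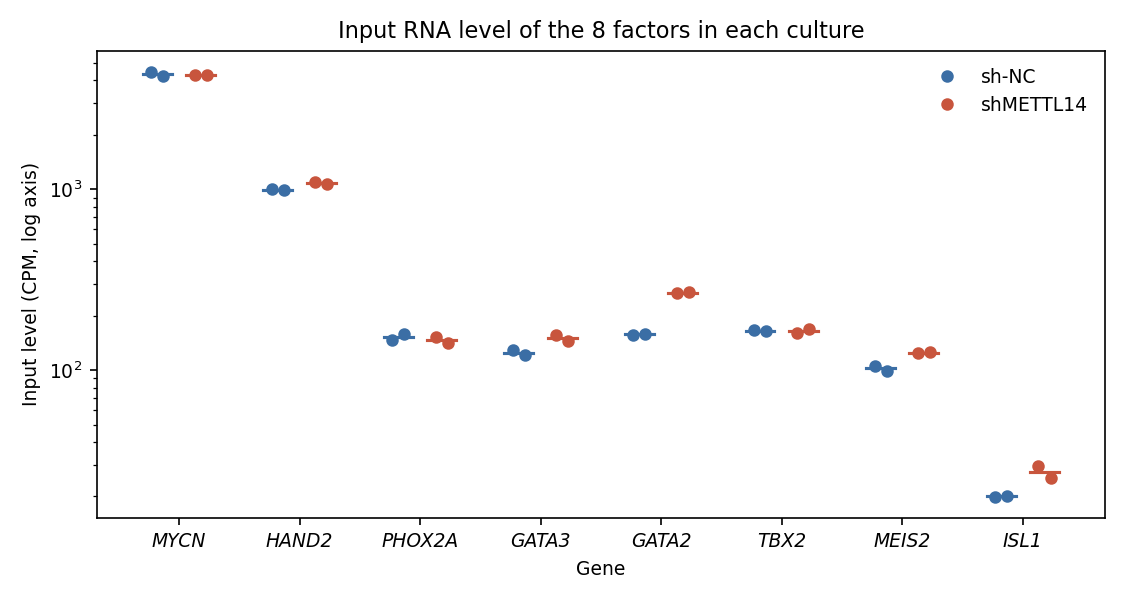
Input level of each factor in CPM on a log axis (not per length), with 1 point per culture and a line at the mean of the 2 cultures of each arm. GATA2 rises from 157.3 and 157.5 CPM to 265.2 and 270.6 CPM, while the points of MYCN, PHOX2A and TBX2 overlap between the arms.

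After METTL14 knockdown, input RNA rose for 5 of the 8 factors, GATA2, ISL1, MEIS2, GATA3 and HAND2, and fell for none. Of the 22245 genes tested, 11.7% were higher and 12.3% were lower at an adjusted p under 0.05. The median log2 change of the 8 was 0.21, against 0.00236 over all genes tested. In a bulk culture, more RNA per cell and more cells of a given state cannot be told apart.

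GATA2 showed the largest rise of the 8. It stood at 157.3 and 157.5 CPM in the sh-NC inputs and at 265.2 and 270.6 CPM in the shMETTL14 inputs. The arms did not overlap, and the log2 change was 0.77 (SE 0.0353, adjusted p = 6.4e-14), a 1.71-fold rise with a 95% interval of 1.63 to 1.80. GATA2 ranked 696 from the top among the 22245 genes. Its paralogue GATA3 went from 128.4 and 120.9 CPM to 157.3 and 144.8 CPM. Again the arms did not overlap, with a log2 change of 0.28 (SE 0.044, adjusted p = 2.71e-05).

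ISL1, a LIM-homeodomain factor of sympathetic and motor neurons, had the fewest reads of the 8, with 714 to 1252 counts per input library. It went from 19.97 and 20.24 CPM to 29.54 and 25.22 CPM, without overlap but with a wider spread in the knockdown arm. The log2 change was 0.45 (SE 0.078, adjusted p = 0.000102). MEIS2 stood at 106 and 99.11 CPM in sh-NC against 124 and 126.2 CPM in shMETTL14, a log2 change of 0.29 (SE 0.0421, adjusted p = 9.91e-06).

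HAND2 had the smallest rise that passed. Its inputs read 1001 and 987.7 CPM in sh-NC against 1099 and 1076 CPM in shMETTL14, with no overlap, a log2 change of 0.14 and a fold of 1.10 (1.05 to 1.15, adjusted p = 0.00099). HAND2 was not called without shMETTL14 replicate 1 or without replicate 2, fits that leave a single shMETTL14 culture. Its log2 change was then 0.12 and 0.15, and fewer genes were called over all those tested as well. With no filter on low counts, GATA3 (adjusted p = 0.0506) and ISL1 (adjusted p = 0.0627) missed the threshold, leaving 3 of 8 called. At that setting 2.89% of 37399 genes tested were higher, against 11.7% in the main fit.

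MYCN, the most abundant factor, stood at 4452 and 4224 CPM in sh-NC against 4310 and 4276 CPM in shMETTL14. The knockdown values lay between the control values, and the log2 change was -0.0085 (SE 0.0274, adjusted p = 0.878), with a fold interval of 0.956 to 1.03. PHOX2A read 146.8 and 159 CPM in sh-NC against 152 and 140.5 CPM in shMETTL14. Its arms overlapped too, with a log2 change of -0.058 (SE 0.0445, adjusted p = 0.399) and a fold interval of 0.901 to 1.02. TBX2 read 166.1 and 164.1 CPM against 160.5 and 168.1 CPM, a log2 change of -0.00080 (SE 0.0378, adjusted p = 0.993) and a fold interval of 0.947 to 1.06. The input arms of the other 5 factors did not overlap, as was the case for 58.4% of the genes tested.

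**Figure D2:**
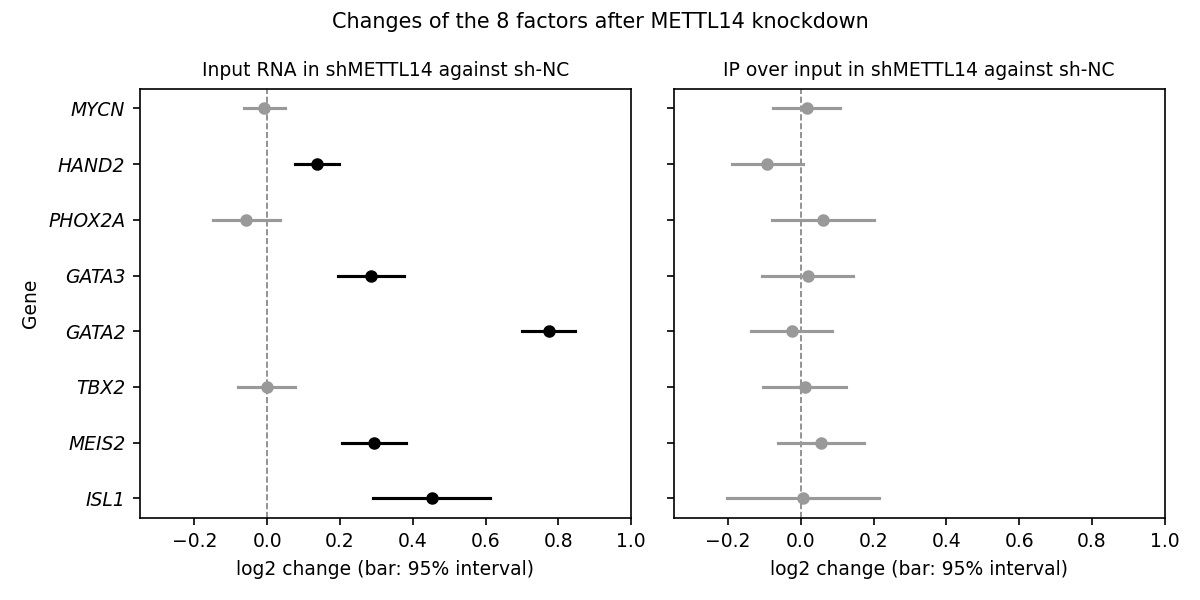
Log2 change from sh-NC to shMETTL14 of input RNA (left) and of IP over input (right) for each factor, with bars for 95% intervals from edgeR. Black marks an adjusted p under 0.05 and grey the rest: 5 factors are black on the left, from 0.14 (HAND2) to 0.77 (GATA2), and none on the right.

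The IP over input ratio of a gene compares its share of the m6A pulldown with its share of the input, so a value of 1 is the scale of the average gene and not an absence of m6A. In both arms HAND2, MEIS2, MYCN, ISL1, GATA2 and TBX2 were higher in the IP than in the input (GATA2, ISL1 and TBX2 not when scaled by library size alone), PHOX2A was lower, and GATA3 did not pass. That is 6 of 8 higher and 1 of 8 lower in each arm. Over the 22953 genes tested, 29.1% were higher and 29.8% lower in sh-NC, and 28.9% were higher and 29.1% lower in shMETTL14.

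HAND2 was the most enriched of the 8. The ratio was 1.92 and 2.05 for sh-NC and 1.85 and 1.88 for shMETTL14, with log2 values of 0.99 (SE 0.0344, adjusted p = 1.29e-29) and 0.90 (SE 0.0343, adjusted p = 7.81e-28). In sh-NC it lay at percentile 93.8 of all genes tested. MEIS2 came second, at 1.66 and 1.81 in sh-NC against 1.85 and 1.75 in shMETTL14 (log2 0.79 and 0.85), at percentile 89 in sh-NC. The cultures of a single arm differed for both genes by less than their distance from 1.

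MYCN stood at 1.24 and 1.27 in sh-NC and at 1.27 in both shMETTL14 cultures. The log2 values were 0.33 (SE 0.0325, adjusted p = 1.35e-12) and 0.34 (SE 0.0325, adjusted p = 3.2e-13). ISL1 was at 1.22 and 1.19 in sh-NC and, with the widest spread of the 8, at 1.11 and 1.33 in shMETTL14 (log2 0.27 and 0.28). Its call in shMETTL14 was lost without shMETTL14 replicate 2, with an adjusted p of 0.23.

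GATA2, TBX2 and GATA3 lay close to 1. GATA2 read 1.12 and 1.07 in sh-NC against 1.06 and 1.09 in shMETTL14 (log2 0.13, adjusted p = 0.00447, and 0.11, adjusted p = 0.017). TBX2 read 1.07 and 1.06 in sh-NC against 1.09 and 1.06 in shMETTL14 (log2 0.091, adjusted p = 0.0487, and 0.10, adjusted p = 0.0284). TBX2 missed the threshold in both arms with the culture as a block (adjusted p = 0.0885 and 0.0555) and with a minimum of 10 counts per library (0.149 and 0.115). Its sh-NC call was also lost with DESeq2 (0.053), with the libraries of that arm alone (0.103) and in all 4 fits that left out a culture (0.0694 to 0.12), and its shMETTL14 call without shMETTL14 replicate 1 (0.297) or replicate 2 (0.122). GATA3 read 0.986 and 1.10 in sh-NC against 0.997 and 1.12 in shMETTL14, with adjusted p-values of 0.267 and 0.13. Without sh-NC replicate 1 its adjusted p in sh-NC was 0.0206. GATA2 missed the threshold without sh-NC replicate 1 in sh-NC (adjusted p = 0.0578), and without shMETTL14 replicate 1 (0.108) or replicate 2 (0.256) in shMETTL14, where the minimum of 10 counts also ended its call (0.0817).

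PHOX2A stood apart from the other 7. The ratio was 0.374 and 0.370 under sh-NC against 0.384 and 0.391 under shMETTL14, with log2 values of -1.43 (SE 0.0492, adjusted p = 8.22e-30) and -1.37 (SE 0.0496, adjusted p = 8.57e-29). It lay at percentile 5.62 of all genes tested in sh-NC. INPPL1, a phosphatase gene on the opposite strand whose exons share 29 bases with PHOX2A, was also low, at 0.56 and 0.523 in sh-NC against 0.537 and 0.527 in shMETTL14.

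These ratios depend on the scale. With library size alone in place of TMM factors, the log2 ratio of the median gene shifted to -0.142 under sh-NC against -0.128 under shMETTL14, and 3 of the 8 factors, HAND2, MEIS2 and MYCN, stayed higher in each arm. The share of all genes higher in the IP was then 23.3% for sh-NC and 23.2% for shMETTL14, and the share lower was 35.9% and 35.2%. On that scale GATA3 and TBX2 turned below 0 in both arms and GATA2 in shMETTL14. PHOX2A stayed lower.

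**Figure D3:**
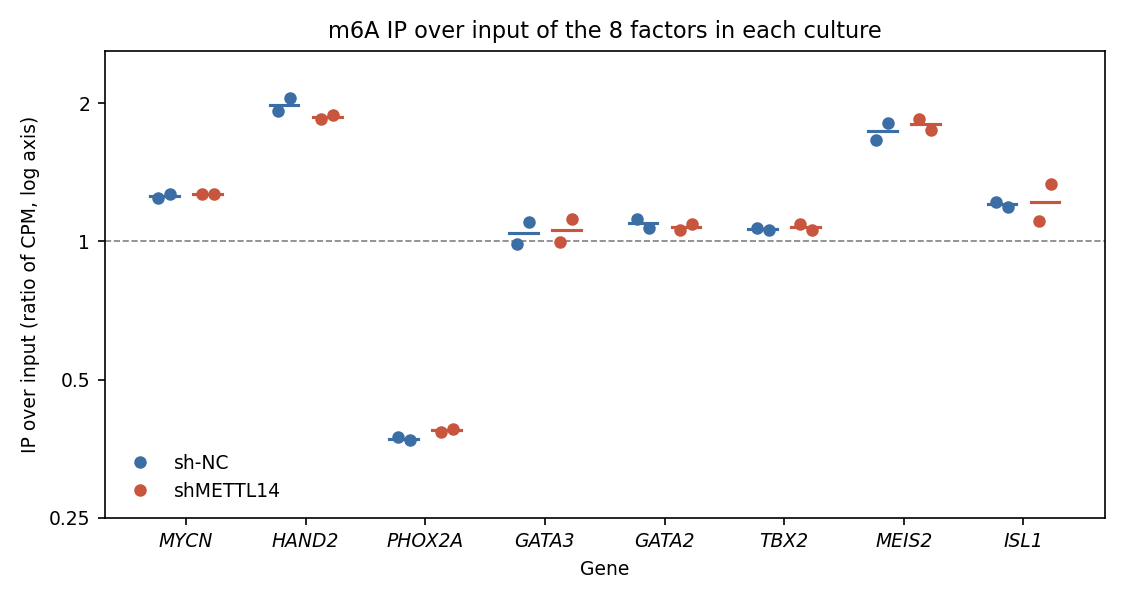
IP over input of each factor on a log axis, as the ratio of CPM in the IP to CPM in the input of the same culture, with 1 point per culture, a line at the mean of each arm and a dashed line at 1. HAND2 and MEIS2 sit between 1.66 and 2.05, PHOX2A between 0.370 and 0.391, and the arms of a gene lie close together.

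**Figure D4:**
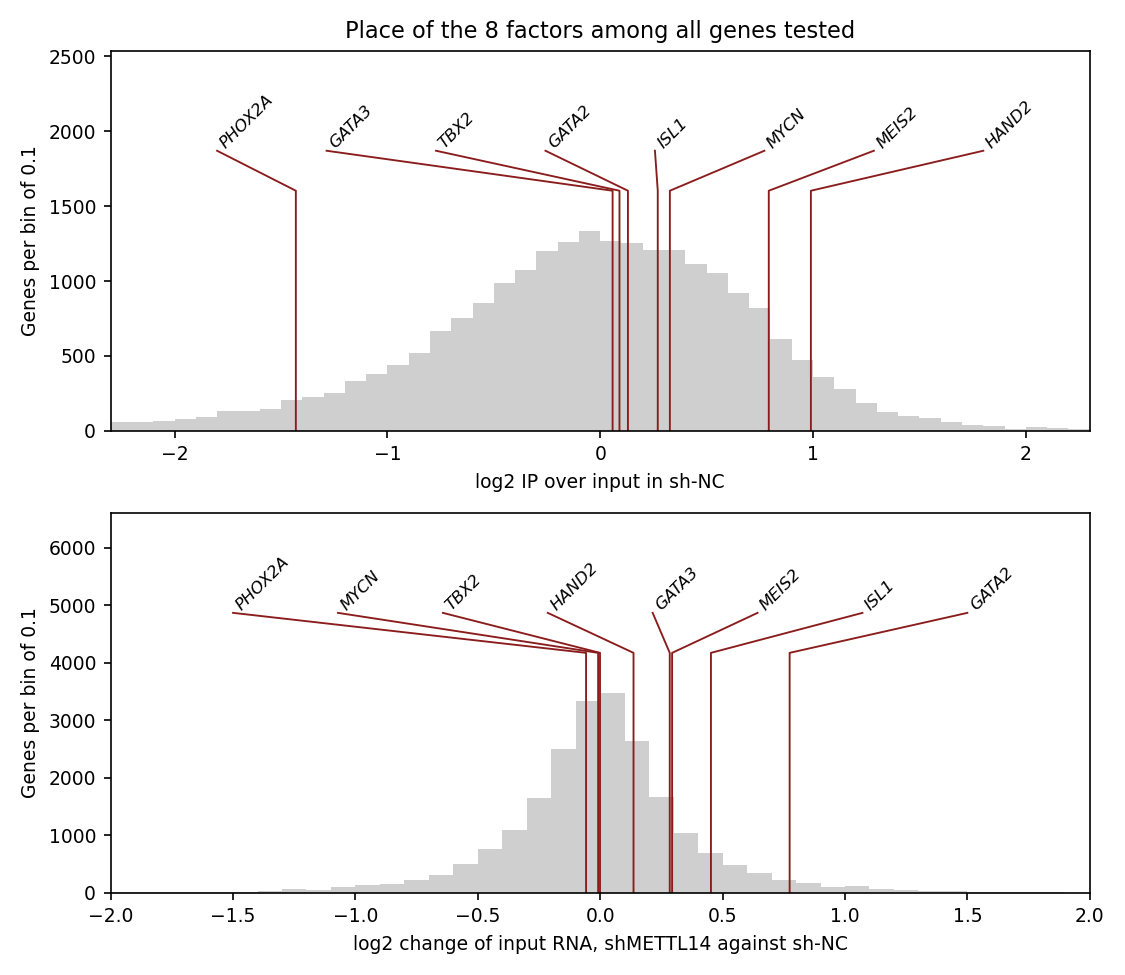
Grey bars count genes per bin of 0.1 in log2 IP over input in sh-NC (top, 22953 genes) and in the log2 change of input RNA (bottom, 22245 genes), and red lines mark the 8 factors. Genes beyond the ends of the axes are not drawn. In the top panel PHOX2A lies in the left tail at -1.43 and HAND2 in the right shoulder at 0.99, and in the bottom panel GATA2 lies farthest right at 0.77.

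The comparison of the ratio between the arms asked whether METTL14 knockdown altered the pulldown of these transcripts relative to the average gene. None of the 8 passed, either after adjustment or at an unadjusted p under 0.05. Over all 22953 genes, 0.00436% (1 gene) passed after adjustment and 6.34% had an unadjusted p under 0.05. With DESeq2, 0 of the 8 passed after adjustment too. On this TMM scale the 95% intervals of the 8 changes all lay between 0.868-fold and 1.16-fold. The scale is relative, so a loss of m6A shared by all transcripts would not appear in it. With factors from the 25% of genes least enriched by the antibody, the median gene moved to -0.123 on the log2 scale and all 8 values lay below 0, from -0.063 (PHOX2A) to -0.22 (HAND2, 0.861-fold). None of the 8 passed there, where 0.00436% of genes were higher and 0.466% lower. The genes behind this scale were picked by their sh-NC ratios in these same libraries. A shift of the other genes below 0 can therefore follow from the choice itself, which was not tested.

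HAND2 came nearest to the threshold. Its ratio, 1.92 and 2.05 against 1.85 and 1.88, gave a log2 difference of -0.092 (SE 0.0482, unadjusted p = 0.0614, adjusted p = 0.794). Leaving out sh-NC replicate 1, whose ratio was the nearer of the control pair to the knockdown values, leaves a single sh-NC culture. The HAND2 difference was then -0.16, with the median gene at -0.019. On the scale of the least enriched genes the HAND2 difference was -0.22 (SE 0.0677, adjusted p = 0.0947). The arms did not overlap for HAND2, nor for PHOX2A (log2 difference 0.061, adjusted p = 0.936). Of all genes, 34.6% had ratios that did not overlap between the arms. MYCN differed by 0.016 on the log2 scale (SE 0.0459, adjusted p = 0.988), an interval of 0.948-fold to 1.08-fold.

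Taken without the inputs, the IP libraries were higher in shMETTL14 for GATA2, GATA3, MEIS2 and ISL1, 4 of the 8 factors. Of 21196 genes tested in the IP libraries, 10.4% were higher and 12.6% lower. GATA2 had 176.2 and 168 CPM in the sh-NC IPs and 281.7 and 294.5 CPM in the shMETTL14 IPs, a log2 change of 0.74 (adjusted p = 1.07e-17). GATA3 changed by 0.29, MEIS2 by 0.34 and ISL1 by 0.45 in the IP libraries, all past the threshold. HAND2, at 1924 and 2026 CPM against 2034 and 2019 CPM, had a log2 change of 0.036 (adjusted p = 0.596).

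Several of the factors have a partner gene on the opposite strand, and the strand setting behind the deposited counts is not given in the sources used here, so values of genes with shared exons are uncertain. MYCN and its antisense gene MYCNOS share 98 exonic bases, 3.77% of MYCN. MYCNOS counts were 10.6% to 13.7% of those of MYCN, and even coverage of MYCN over the shared bases would give 27.6% to 35.4% of the MYCNOS counts. MYCNOS, which unlike MYCN passed the input test, went from 473.4 and 505.5 CPM to 575.3 and 583.9 CPM (log2 0.25, SE 0.0338, adjusted p = 4.47e-06).

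HAND2 and HAND2-AS1 share more, 769 bases or 21.4% of the HAND2 exons, and RefSeq places a start of HAND2-AS1 229 bases from that of HAND2, so that their start windows share 272 bases. HAND2-AS1 counts were 59.8% to 74.7% of those of HAND2. Its input went from 741.9 and 731.4 CPM to 821.6 and 803.6 CPM (log2 0.15, SE 0.0299, adjusted p = 0.000581), close in size to the 0.14 of HAND2. Without shMETTL14 replicate 1 it just missed the threshold, at an adjusted p of 0.05. IP over input of HAND2-AS1 was 1.61 and 1.71 in sh-NC and 1.50 in both shMETTL14 cultures. The difference of -0.15 did not pass on the TMM scale (adjusted p = 0.604). It passed on the scale of the least enriched genes, at -0.27 (SE 0.0675, adjusted p = 0.0413), where 0.466% of genes were lower. That scale rests on genes picked by their sh-NC ratios in these same libraries. Without sh-NC replicate 1, which leaves a single sh-NC culture, the difference was -0.21 on the TMM scale.

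GATA3-AS1 shares no exonic base with GATA3, and its annotated starts lie 157 to 219 bases from a start of GATA3. It went from 13.74 and 13.64 CPM to 19.3 and 20.6 CPM in the input, without overlap and with a log2 change of 0.55 (SE 0.0819, adjusted p = 1.66e-05). Its IP over input, 1.81 and 1.84 in sh-NC, was above that of GATA3 in both cultures. GATA2-AS1, at 8.868 and 10.26 CPM against 10.9 and 10.48 CPM, did not pass (log2 0.17, adjusted p = 0.289). TBX2-AS1, at 7.105 and 7.735 CPM against 7.29 and 6.94 CPM, did not pass either (log2 -0.054, adjusted p = 0.811). Exons of TBX2 shared 28 bases with RP11-332H18.5, which had few reads. Those of MEIS2 shared 431 bases with RP11-128A17.1, at most 2.07% of the MEIS2 counts.

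The other listed factors of the adrenergic state were read from the same inputs. Of 18 such genes, all tested, input RNA rose for 9, fell for 1 and did not pass for 8, beside 11.7% higher and 12.3% lower of all genes. The median log2 change was 0.304 against 0.00236 over all genes. HAND1, the paralogue of HAND2, went from 28.6 CPM in both sh-NC cultures to 40.7 and 38.6 CPM (log2 0.48, adjusted p = 2.05e-06). EYA1, a transcriptional cofactor, went from 32.2 and 30.5 CPM to 42.7 and 42.5 CPM (log2 0.45, adjusted p = 2.66e-06). LMO1, a LIM-only protein, went from 2.88 and 2.58 CPM to 4.36 and 4.62 CPM (log2 0.72, adjusted p = 0.00197), a call lost without shMETTL14 replicate 2 (adjusted p = 0.0863). The gene that fell was KLF13, a Krüppel-like factor, from 93 and 89.2 CPM to 74.1 and 72.7 CPM (log2 -0.30, adjusted p = 1.28e-05).

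Genes of the noradrenergic phenotype encode the products by which this lineage is recognised. Of 15 genes tested, 10 rose, 1 fell and 4 did not pass, beside 11.7% higher and 12.3% lower of all genes. The median log2 change was 0.499. TH, the rate-limiting enzyme of catecholamine synthesis, went from 32.6 and 35.7 CPM to 68.9 and 70.2 CPM (log2 1.03, adjusted p = 7.94e-13). SLC18A1, a vesicular monoamine transporter, went from 5.79 and 5.43 CPM to 16.6 and 16.8 CPM (log2 1.58, adjusted p = 3.67e-11). The other such transporter in the list, SLC18A2, did not pass, at 4.87 and 5.21 CPM against 4.48 and 3.28 CPM (log2 -0.37, adjusted p = 0.104). STMN2, a neuronal microtubule regulator, went from 372 and 365 CPM to 806 and 810 CPM (log2 1.14, adjusted p = 3.36e-18). RET, a receptor tyrosine kinase of the sympathetic lineage, fell from 533 and 557 CPM to 459 and 464 CPM (log2 -0.23, adjusted p = 5.79e-06). The arms of TH, SLC18A1, STMN2 and RET did not overlap. With 1 culture left out, the log2 change ran from 0.97 to 1.10 for TH and from 1.53 to 1.62 for SLC18A1. It ran from 1.125 to 1.153 for STMN2 and from -0.27 to -0.20 for RET. A further gene of the list was called lower without shMETTL14 replicate 1.

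Cofactors of the 8 proteins moved both ways. Of 20 listed genes 18 were tested, and 4 rose, 4 fell and 10 did not pass, beside 11.7% higher and 12.3% lower of all genes. The median log2 change was 0.0521. ZFPM1, a partner of GATA factors, rose from 36.3 and 39.9 CPM to 53.5 and 52.6 CPM (log2 0.48, adjusted p = 5.86e-07), and LDB1, the adaptor of LIM-homeodomain proteins such as ISL1, by 0.27 on the log2 scale (adjusted p = 7.22e-06). Among the E-proteins that pair with HAND2, TCF4 fell from 207 and 197 CPM to 143 and 146 CPM (log2 -0.48, adjusted p = 1.08e-09) and TCF12 from 125 and 120 CPM to 108 and 105 CPM (log2 -0.19, adjusted p = 0.00099), while TCF3 rose (log2 0.21, adjusted p = 0.000126). ID1, an inhibitor of E-proteins, fell from 29.7 and 30 CPM to 22 and 22.4 CPM (log2 -0.42, adjusted p = 3.87e-05), as did the corepressor TLE3 (log2 -0.25, adjusted p = 5.49e-05). Without shMETTL14 replicate 2 fewer cofactors were called in both directions, and fewer genes over all those tested as well. TCF3 and TLE3 were no longer called there, with log2 changes of 0.23 and -0.23.

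HAND1 and TBX3, the paralogue of TBX2, were listed with the adrenergic factors, and both rose (TBX3 log2 0.32, adjusted p = 5.58e-07). Of 11 further paralogues 6 had enough reads to be tested. Beside 11.7% higher and 12.3% lower of all genes, only MEIS1 of these passed, from 47.8 and 47.4 CPM to 55.3 and 57.7 CPM (log2 0.26, adjusted p = 0.00053). It was not called without shMETTL14 replicate 2 (adjusted p = 0.0874).

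Although MYCN itself did not pass, genes around it did. In the list of MYC network partners and regulators of MYCN, 8 of 18 rose, 1 fell and 9 did not pass. Of all genes, 11.7% were higher and 12.3% lower. The median log2 change of the list was 0.118. MXD4 and MNT, which pair with MAX and act against MYC proteins, rose by 0.47 (adjusted p = 3.1e-08) and 0.34 (adjusted p = 3.61e-05) on the log2 scale. FBXW7, the ubiquitin ligase subunit that marks MYCN for degradation, went from 52.4 and 52.7 CPM to 68.3 and 65.5 CPM (log2 0.36, adjusted p = 5.76e-06). MGA, another MAX partner, fell from 165 and 152 CPM to 137 and 142 CPM (log2 -0.18, adjusted p = 0.00262). Fewer of the list rose without sh-NC replicate 1 or without either shMETTL14 culture, and fewer genes rose over all those tested as well. MGA was not called in those 3 fits, and its log2 change ran from -0.24 to -0.12 when 1 culture was left out. With no filter on low counts 5 rose and MGA was not called (adjusted p = 0.154), beside 2.89% higher of all genes. With DESeq2 5 rose, beside 8.24% of all genes.

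Known target genes of MYC proteins moved in both directions. Of 20, 5 rose, 8 fell and 7 did not pass, beside 11.7% higher and 12.3% lower of all genes. The median log2 change was -0.0206. NOLC1, a nucleolar phosphoprotein, fell from 935 and 903 CPM to 652 and 653 CPM (log2 -0.49, adjusted p = 1.52e-11). ODC1, the first enzyme of polyamine synthesis, fell by 0.26 on the log2 scale (adjusted p = 6.85e-05), and MCM7, a subunit of the replicative helicase, by 0.21 (adjusted p = 2.21e-05). CDK4, the kinase of G1 progression, went from 170 and 182 CPM to 204 and 207 CPM (log2 0.23, adjusted p = 5.78e-05). SRM, spermidine synthase, differed by 0.18 (adjusted p = 0.0115) and RRS1, a ribosome assembly factor, by 0.17 (adjusted p = 0.00973). Fewer target genes were called in most fits that left out 1 culture, and fewer genes were called over all those tested as well. In those fits the log2 change ran from 0.19 to 0.28 for CDK4, 0.13 to 0.23 for SRM and 0.15 to 0.20 for RRS1. CDK4 was not called without shMETTL14 replicate 2. SRM and RRS1 were not called without sh-NC replicate 1 or without either shMETTL14 culture. Nor were they called with no filter on low counts, where 1 target gene rose and 4 fell, beside 2.89% higher and 2.87% lower of all genes.

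The change of IP over input passed for no gene in any of these 6 lists with edgeR, and DESeq2 called no gene at all in that comparison. At an unadjusted p under 0.05 there were 3 genes of the MYC network and 3 MYC target genes, and none of the other lists, beside 6.34% of all genes.

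The markers of both neuroblastoma states were summed in the inputs. Calls among them stand beside 11.7% higher and 12.3% lower of all genes tested. The 15 adrenergic markers, which include the 8 factors, summed to 6852 and 7099 CPM in sh-NC against 7389 and 7441 CPM in shMETTL14. Of these, 10 rose, the 5 factors that rose among them, and none fell. The 7 markers outside the 8 factors summed to 921.7 and 919.1 CPM in sh-NC against 1143 and 1162 CPM in shMETTL14, and 5 rose and none fell. The 15 mesenchymal markers summed to 2608 and 2685 CPM in sh-NC against 2164 and 2166 CPM in shMETTL14, and 2 rose, 9 fell and 4 did not pass. VIM, an intermediate filament protein and the most abundant of them, went from 1910 and 1980 CPM to 1570 CPM in both knockdown cultures. PRRX1 and FOSL1, both mesenchymal transcription factors at low levels, were the markers of this list that rose. The part of a shift between states in the values of the 8 factors was not tested.

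Over the 8 libraries, each factor was matched to the genes most like it in log2 CPM, among about 16440 genes with a mean of at least 50 counts that share no exonic base with it. The libraries of an arm and of a kind share the knockdown or the pulldown, so these correlations describe that structure and carry no test. HAND2 was most like SEC62 (Pearson r = 0.9997), MEIS2 like MTUS1 (0.9997), PHOX2A like APMAP (0.9995), MYCN like PDS5B (0.9975), GATA2 like ADAMTS19 (0.9974), ISL1 like SRRM3 (0.9906) and GATA3 like DIS3L2 (0.9839). TBX2, whose values hardly varied, was most like HEATR6 at r = 0.983, but with library size alone that r was 0.1689.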

How the data were processed

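The authors deposited raw counts per gene for 8 libraries, with no normalization. Per the labels, polyadenylated RNA was fragmented, split into input and anti-m6A IP, and made into stranded libraries with unique molecular identifiers. The submitters' processing notes name Trimmomatic 0.36 and GRCh38. The aligner, counter, strand setting and removal of duplicate identifiers are not given in the sources used here, and kept duplicates would make counts less independent.

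Tests were run with edgeR 4.0.16 under R 4.3.3 (filterByExpr, TMM, glmQLFit, glmQLFTest, Benjamini-Hochberg over all genes tested, threshold 0.05). The input comparison used the 4 input libraries, and IP over input and its change used 1 model of 8 libraries with 4 group means. Standard errors are the absolute log2 change over the square root of F. A prior count of 2 was used for log CPM. DESeq2 1.42.0 and other settings were alternatives. A test of 2 against 2 samples by permutation cannot go below 0.333. Fits were tested on simulated data with 50 genes changed at each size. The input fit recovered 40% of log2 changes of 0.25, 50% of 0.5 and 84% of 1. For the change of IP over input the shares were 12%, 34% and 72%, so most changes of the smaller sizes were missed there. Replicate libraries differed by more than sampling noise. The IP and input of a culture share their RNA and are paired by the protocol, although their deviations from group means correlated by only 0.004 in sh-NC and 5.7e-05 in shMETTL14.

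Named genes were the 8 factors, METTL14, overlapping or antisense genes, the gene most like each factor, and up to 3 genes per list and direction that passed. The 8 genes and the lists were chosen with earlier results of these data known. PRRX1, FOSL1, RUNX2, VIM and LYZ, named among the markers, and SLC18A2, TBX3 and TCF12 were chosen after their values were seen.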

Additional observations from a re-analysis of the deposited data

How the results depend on the processing

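With 2 cultures per arm, the precision is set by the cultures and not by depth. The direction of GATA2, ISL1, MEIS2, GATA3 and HAND2 in the input held under every alternative run. Leaving out a culture leaves 1 sample in an arm, assumed to vary like the others, and gave 4 to 5 factors higher in the input (656 to 2366 genes higher and 925 to 2590 lower), 3 to 6 factors higher in the IP in shMETTL14, and, for the ratio's change between arms, 0 to 1 factors lower, 0 to 9 genes higher and 0 to 116 lower. With the culture or replicate number as a replicate block, 5 factors were higher in the input and 5 higher in the IP in each arm, TBX2 being the call lost, and the change had 0 genes higher and 1 lower. Same-numbered inputs of the 2 arms deviated with a correlation of -0.012. The same measure was also small, 0.004 and 5.7e-05, for the IP and input of a culture, which are paired by the protocol. It therefore cannot show whether the input numbers are a pairing. The causes of the shifts that follow were not tested.

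With no filter, 3 factors were called higher in the input, with 1082 genes higher and 1072 lower, and the change had 1 gene higher and 12 lower. The change had 0 genes lower with DESeq2, 2 with RLE factors and 3 with at least 10 counts in every library. With library size only, 3 factors were higher in the IP in each arm, with 5358 genes higher and 8250 lower in sh-NC and 5322 and 8080 in shMETTL14. IP over input then was -0.071 for GATA3 and -0.038 for TBX2 in sh-NC, and -0.015 for GATA2, -0.044 for GATA3 and -0.020 for TBX2 in shMETTL14. Factors taken from the 25% of genes least enriched by the antibody, picked by sh-NC ratios of these same libraries, gave 1 gene higher and 107 lower for the change. On that scale the log2 change was -0.11 for MYCN, -0.063 for PHOX2A, -0.10 for GATA3, -0.12 for ISL1, -0.11 for TBX2, -0.068 for MEIS2, -0.22 for HAND2, -0.15 for GATA2 and -0.029 for METTL14, and -0.27 for HAND2-AS1, which passed (adjusted p = 0.0413). Without the inputs, so that RNA changes remain in the IP values, 2207 genes and 4 factors were higher and 2667 genes lower, of 21196 tested. The values were -0.00075 for MYCN, -0.0054 for PHOX2A, 0.036 for HAND2, 0.74 for GATA2, -1.70 for METTL14, 0.14 for MYCNOS and 0.50 for GATA3-AS1.

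Values near 0 changed sign without passing. In the input, TBX2 was 0.0060 with library size only, 0.013 with no filter and 0.0013 with at least 10 counts, and MYCN was 0.0056 with no filter. With no filter the change was -0.0068 for ISL1 and -0.0013 for TBX2. With 1 culture left out, the input change ran from -0.047 to 0.028 for MYCN, -0.038 to 0.032 for TBX2, -0.15 to 0.023 for RP11-128A17.1 and -0.12 to 0.0070 for TBX2-AS1. IP over input of GATA3 in sh-NC ran from -0.015 to 0.15. The change ran from -0.023 to 0.035 for MYCN, -0.082 to 0.097 for GATA3, -0.025 to 0.11 for MEIS2, -0.13 to 0.14 for ISL1, -0.011 to 0.028 for TBX2, -0.0026 to 0.19 for METTL14 and -0.11 to 0.025 for GATA3-AS1.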
